A study of Stylophora pistillata with 24 samples.

Results

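A pair of proprotein convertase genes of the stony coral Stylophora pistillata is described across depth and life stage. They are gene12209, annotated as neuroendocrine convertase 2-like, and gene26190, annotated as furin-like. They were chosen because their messenger RNA was nearly absent from planulae (brooded larvae) of the deep reef while present in planulae of the shallow reef, and they are 2 of the 33281 genes counted. The difference between deep and shallow planulae therefore chose these genes, and is given for them as a description with no test.

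Proprotein convertases are proteases of the secretory pathway that cut inactive precursor proteins after pairs or clusters of basic residues. In mammals, neuroendocrine convertase 2 works inside the secretory granules of nerve and endocrine cells, where it releases peptide hormones and neuropeptides from their precursors. Mammalian furin works in the trans-Golgi network of most cells, and activates growth factors, receptors and matrix proteases. Cnidarians have a nerve net that uses many neuropeptides, which are likewise cut from longer precursors.

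Poly(A) RNA of whole organisms was sequenced in 24 libraries, 3 for each of 8 groups. Native planulae and native adults came from the reef at Eilat, either at 5 m (shallow) or at 45 m (deep, mesophotic). The juveniles in the remaining 4 groups all descended from shallow planulae and were grown inside plastic settlement chambers in the sea for 8 or 60 days, at 5 m as controls or at 45 m as translocated juveniles. No juveniles of deep origin enter here, so both deep native groups are set against juveniles of shallow origin. The labels do not state whether libraries of a group came from separate colonies or broods, and the spread behind each p-value may in part be technical. In whole organisms, fewer cells of a type and less RNA per cell cannot be told apart.

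Total counts per library ran from 13.57 to 35.78 M (median 24.32 M, where M is 1e6). Levels are given as counts per 1e6 counts (CPM) after scaling with edgeR's TMM factors (trimmed mean of M-values), as mean ± SD of 3 libraries. Shallow planula replicate 1 and deep adult replicate 3 had the lowest median rank correlation within their own groups (0.9461 and 0.9156). Calls that end or values that move by over 1.5 times without either are given without it. They were not the only libraries at some distance, since deep planula replicate 3 had 0.9536 against 0.9633 and 0.965 in its group. A count of 3 in 1 library, used as the detection floor, equalled 0.114 to 0.154 CPM in the deep planulae and 0.122 to 0.244 CPM in the deep adults. Neither the floors nor the intervals below include more than counting error.

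The name under which these genes were paired, depth-restricted, held for gene12209 among native planulae and adults only. It did not hold for gene26190. Gene12209 was detected at all stages of shallow origin, at 5 m and at 45 m, and was nearly absent from deep planulae and deep adults. Gene26190 was nearly absent from every group except shallow planulae, shallow adults included.

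Gene12209 had 421, 593 and 301 counts in the 3 shallow planula libraries, and 0, 1 and 0 counts in the 3 deep planula libraries. On the CPM scale the shallow planulae had 31.8, 39.5 and 24, while the deep library with a count had 0.0464. The choice of the gene implied groups that did not overlap. The summed levels differed 2170-fold, a ratio that rests on a single deep count, and no interval is given for it.

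The same gene was next compared between native adults, whose libraries had no part in choosing it. Shallow adults had 622, 797 and 494 counts (17.4, 22.7 and 17.2 CPM) and deep adults had 1, 0 and 0 counts, the single count being 0.0544 CPM. The groups were fully separated, with no deep library above its detection floor. In deep adults gene12209 fell by 9.68 on the log2 scale (SE 0.52, edgeR quasi-likelihood test, adjusted p = 1.34e-09), where 8.11% of all genes tested were called, 3.77% higher and 4.33% lower. The fitted fold change depends on how 0 counts are handled, and the ratio of summed levels was 1060 with a 95% counting interval of 191 to 42100. Without deep adult replicate 1, which held the single count, the log2 difference was -11.9 (adjusted p = 3.23e-08), and without replicate 2 it was -9.0 (6.12e-08). In the authors' deposited table the adult log2 fold change was -9.86 with an adjusted p of 1.44e-13. The floors of the deep adult libraries were far below the 17.2 CPM of the lowest shallow adult.

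Juveniles that had been moved to 45 m had gene12209 in every library, and its difference from the 5 m controls was not called at either age. At 8 days the controls had 18.0, 17.3 and 13.7 CPM and the translocated juveniles 18.0, 19.9 and 20.7 CPM. At 60 days the controls had 22.5, 15.6 and 17.8 CPM and the translocated juveniles 21.9, 24.3 and 20.9 CPM. At 8 days the groups did not overlap, though narrowly, with 18.03 CPM in the highest control and 18.05 CPM in the lowest translocated library, and at 60 days they overlapped. The log2 difference, translocated minus control, was 0.26 at 8 days (SE 0.28, edgeR adjusted p = 0.965) and 0.26 at 60 days (SE 0.28, adjusted p = 0.702), where 0.00389% and 2.36% of all genes were called (at 60 days 1.08% higher and 1.28% lower). A p above the threshold does not show equal levels. All 6 translocated libraries had between 345 and 667 counts.

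The depth effect in native adults and the effect of 60 days at 45 m were then compared directly. The adult difference minus the juvenile difference was -9.94 on the log2 scale (SE 0.61, adjusted p = 1.99e-08), and 4.34% of all genes tested were called for this difference of effects. At 45 m itself, deep adults minus 60-day translocated juveniles gave -9.91 on the log2 scale (SE 0.52, adjusted p = 6.01e-10, 23.8% of genes called), and the ratio of summed levels was 1240 with a 95% counting interval of 222 to 49000. Without deep adult replicate 1 these 2 differences were both -12.1, and without replicate 2 they were -9.26 and -9.23. Deep adults and translocated juveniles share the depth and differ in age, in the depth of origin and in the settlement chamber, which cannot be told apart.

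**Figure D1:**
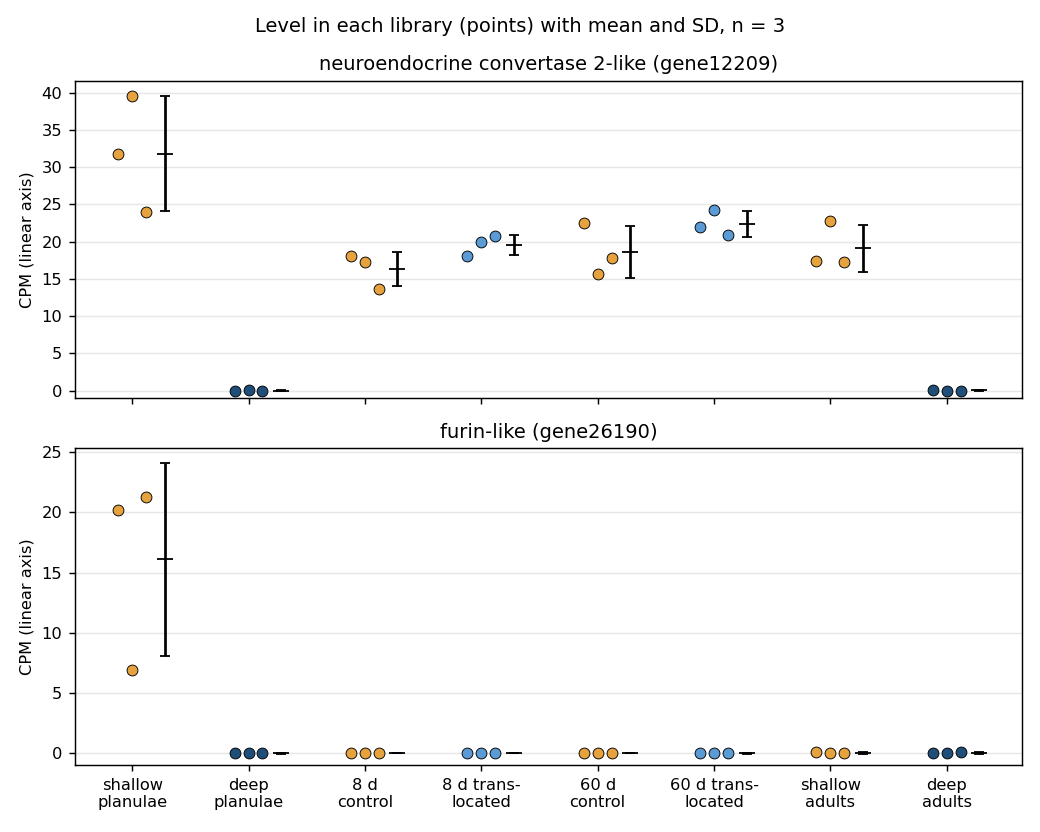
CPM of gene12209 and gene26190 in each library (points, linear axis) for the 8 groups, with bars for the mean and SD of 3 libraries; orange marks growth at 5 m, light blue juveniles moved to 45 m and dark blue the deep natives. Gene12209 lies between 13.7 and 39.5 CPM in all 18 libraries of shallow origin and near 0 in the deep planulae and deep adults, whereas gene26190 is high in the shallow planulae alone.

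None of the 3 comparisons of age that were tested was called for gene12209 in corals of shallow origin; the step from planulae to 8 days was not tested. From 8 to 60 days its log2 difference was 0.19 in controls (SE 0.28, adjusted p = 0.755, 8.51% of genes called) and 0.2 in translocated juveniles (SE 0.28, adjusted p = 0.754, 7.41% called). Shallow adults differed from 60-day controls by 0.04 (SE 0.28, adjusted p = 0.938), in a comparison where 31.4% of all genes were called. This last difference was -0.08 without 60-day control replicate 2 and -0.11 without shallow adult replicate 2, so it had no stable sign.

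By mean level the order was shallow planulae (31.8 ± 7.76 CPM), 60-day translocated juveniles (22.4 ± 1.75), 8-day translocated juveniles (19.5 ± 1.35), shallow adults (19.1 ± 3.14), 60-day controls (18.6 ± 3.55) and 8-day controls (16.3 ± 2.3). Among neighbours in this order, only the 60-day and the 8-day translocated juveniles had libraries that did not overlap, before the gap to both deep groups. That separation was narrow (20.89 against 20.69 CPM) and was lost without TMM factors. There 60-day translocated replicate 3 had 18.70 CPM, below the 21.11 CPM of the lowest 8-day translocated library. The first place of the shallow planulae also depended on the scaling: from total counts without TMM factors they had 18.6 ± 4.74 CPM, below the 24.4 CPM of the shallow adults. Over the 18 libraries of shallow origin the TMM-scaled level spanned 13.7 to 39.5 CPM (median 20.3), a ratio of 2.88.

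Gene26190, the furin-like gene, had 267, 104 and 268 counts in shallow planulae, equal to 20.2, 6.93 and 21.3 CPM. Replicate 2 was the lowest of the 3 and still far above its floor of detection, and the group mean was 16.1 ± 8.01 CPM (9.5 ± 4.81 without TMM factors). Per kilobase of the length in the deposited table, shallow planulae had 5.12 CPM of gene26190 and 18.4 CPM of gene12209.

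In the other 21 libraries gene26190 had 9 counts in all, with 14 libraries at 0 and at most 3 counts in any library. Those 3 counts were in shallow adult replicate 1, at 0.0841 CPM. Shallow planulae were 1050-fold above deep planulae, the contrast that chose the gene. They were 788-fold above 8-day controls, which had 2 counts in all, and 520-fold above shallow adults, which had 3. The level in shallow planulae entered the choice of the gene, so its ratios are descriptions and no interval is given. The 8-day translocated juveniles were at 0 in all 3 libraries, which puts shallow planulae at least 116-fold higher at the floor of 3 counts per library. No comparison between adults or between juveniles could be made for this gene, since both groups lay at or below the floor in each. Its RNA was therefore found at more than the floor in the shallow planulae alone.

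Near absence of this kind was rare. At most 3 counts over the 3 deep libraries together with at least 10 CPM in the shallow group was met by 5 genes in planulae (0.015% of the 33281 counted) and by 25 genes in adults (0.0751%). Gene12209 was the single gene that met it at both stages. Near absence in deep planulae chose gene12209 and gene26190, so only the adult part of this was open for gene12209. The other planula genes were gene26190, gene14515 (STELLO1-like glycosyltransferase), gene26965 (spondin-1-like, an extracellular matrix protein) and the uncharacterized gene25267. Deep adults had 213 counts of gene14515, 129 of gene25267 and 91 of gene26965, so those genes were detected in deep adults. Gene26190 was also the single gene with at least 10 CPM in shallow planulae and at most 3 counts in each of the other 21 libraries. The planula part of that pattern was likewise fixed by its choice. Without shallow planula replicate 1 the planula count was 4, and without deep adult replicate 3 the adult count was 36, with gene12209 still the 1 gene shared. With up to 10 deep counts allowed, gene12206 joined gene12209.

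Gene12206, a second furin-like gene, lay just outside the limit that marks near absence. Its counts were 253, 360 and 204 in shallow planulae and 2, 6 and 2 in deep planulae. In adults they were 560, 609 and 368 in the shallow group and 0, 1 and 2 in the deep group. Like gene12209, it had no overlap between depths at either native stage. In deep planulae it fell by 6.99 on the log2 scale (SE 0.47, edgeR adjusted p = 2.65e-08, 22.9% of genes called) and in deep adults it fell by 7.97 (SE 0.53, adjusted p = 1.87e-08). At 60 days the controls had 17.8, 11.4 and 10.4 CPM and the translocated juveniles 13.4, 12.1 and 15.3 CPM, which overlapped. The log2 difference was 0.15 at 8 days (SE 0.34, adjusted p = 0.982) and 0.04 at 60 days (SE 0.34, adjusted p = 0.983). The adult effect minus the 60-day translocation effect was -8.01 (SE 0.63, adjusted p = 3.67e-07). Without deep adult replicate 3 the adult difference was -9.09 (adjusted p = 6.26e-08) and the difference of effects -9.13 (3.81e-07), and without deep planula replicate 2 the planula difference was -7.73 (1.22e-07).

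The wider convertase family stayed well represented in the deep groups. The list of convertases, chosen by product name, held 32 genes besides gene12209 and gene26190, and all 32 reached 1 CPM in some group. In deep planulae 27 of them had a mean of at least 1 CPM, in deep adults 26 did, and 23 did so in all 8 groups. The summed level of the 32 genes was 1210 to 1910 CPM in shallow planulae and 2420 to 3470 CPM in deep planulae, without overlap. In adults it was 915 to 1020 CPM in the shallow and 931 to 1050 CPM in the deep group, which overlapped. At 8 days it was 1380 to 1750 CPM in controls and 2000 to 3080 CPM in translocated juveniles, without overlap. At 60 days it was 970 to 1340 CPM in controls and 837 to 1640 CPM in translocated juveniles, which overlapped.

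**Figure D2:**
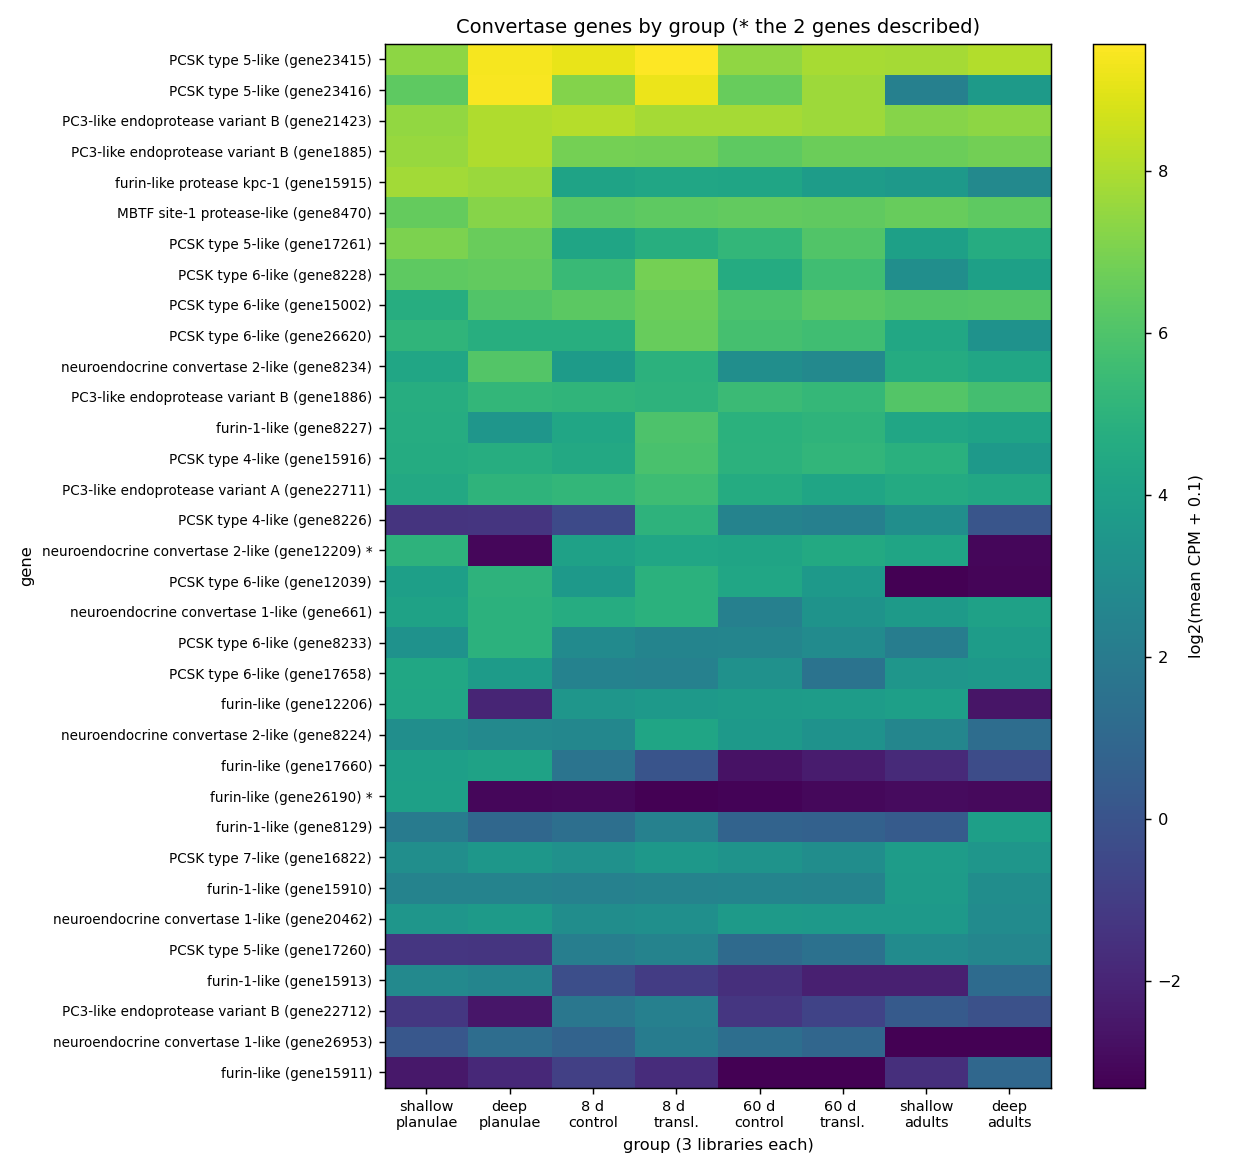
Mean level of each of the 34 convertase genes (rows, ordered by the highest group mean) in the 8 groups of 3 libraries (columns), coloured by log2 of the mean CPM plus 0.1. Gene12209 and gene12206 are dark in the deep planulae and deep adults, gene26190 is dark in every group but the shallow planulae, and 23 of the 32 other genes have at least 1 CPM in all groups.

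In planulae, 7 of the 32 other convertases were higher in the deep group and 2 were lower, with a median log2 difference of 0.22 against 0.09 over all genes; 12.5% of all genes were called higher and 10.4% lower. PCSK type 6-like gene15002, whose mammalian relative acts on growth factor precursors at the cell surface, rose from 26.3 ± 11.1 to 66.5 ± 17 CPM (log2 1.34, adjusted p = 0.00275). Gene8470, like the site-1 protease that in mammals activates membrane-bound transcription factors, rose by 0.69. Gene12206, gene15002 and gene8470 were called under every alternative tried. The PCSK type 5-like genes gene23415 and gene23416 had the largest increases of the 7, but shallow planula replicate 1 had 378 CPM of gene23415 where replicates 2 and 3 had 60.1 and 53.4 CPM. Gene23415 rose by 2.01 (adjusted p = 0.015) and gene23416 by 3.08 (adjusted p = 0.0125). Without shallow planula replicate 1 the increases were larger, at 3.54 (adjusted p = 3.32e-05) and 4.2 (0.00461). Without shallow planula replicate 2 the adjusted p values were 0.0723 and 0.0615, without replicate 3 they were 0.0677 and 0.0615, and without deep planula replicate 2 they were 0.0565 and 0.0509.

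The remaining increases in deep planulae were smaller, at 0.6 for gene21423 and 0.63 for gene22711 (PC3-like endoproteases) and 0.89 for neuroendocrine convertase 1-like gene661. The call of gene21423 was lost without shallow planula replicate 2 or 3 or deep planula replicate 3 (adjusted p from 0.0697 to 0.0949). That of gene22711 was lost without any of 5 of the 6 planula libraries, the exception being deep planula replicate 2 (0.05 to 0.177). That of gene661 was lost without shallow planula replicate 2 or 3 or deep planula replicate 1 or 2 (0.0512 to 0.155). Furin-1-like gene8227 fell by 1.23 (SE 0.35, adjusted p = 0.0157), with an adjusted p of 0.0531 without shallow planula replicate 2 and 0.0587 without deep planula replicate 3. Leaving out each planula library in turn left 2 to 6 convertases higher and 1 or 2 lower.

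In adults, 1 of the 32 other convertases rose, 2 fell and 29 were not called, with a median log2 difference of -0.08 against 0.0 over all genes. Of all genes tested, 3.77% were called higher and 4.33% lower. Besides gene12206, PCSK type 4-like gene15916 fell from 28.8 ± 0.748 to 12.1 ± 3.36 CPM (log2 -1.25, SE 0.38, adjusted p = 0.0485). That call was lost without any of the 3 shallow adult libraries and without deep adult replicate 1 or 3, with adjusted p values from 0.09 to 0.146. Furin-1-like gene8129 rose by 3.67 (SE 0.85, adjusted p = 0.0117), with 2.07, 5.59 and 38.6 CPM in deep adults against at most 2.33 CPM in shallow adults. Without deep adult replicate 3 its log2 difference was 1.67 (adjusted p = 0.155), and without shallow adult replicates 1 and 2 in turn the adjusted p was 0.0553 and 0.056. Without shallow adult replicate 3 the difference was 4.54 (adjusted p = 0.0117). Among the juveniles edgeR called 0 of the 32 at either age. At 8 days 7 had an unadjusted p under 0.05, all higher in translocated juveniles, where 1397 of 25735 genes did in either direction. DESeq2 called 4 of 31 higher and 0 lower at that age, against 83 and 12 of 25127 over all genes. The median log2 difference by edgeR was 0.35, against -0.03 over all genes. At 60 days 3 had an unadjusted p under 0.05, where 4330 of 25735 genes did. DESeq2 called 2 of 31 higher and 0 lower, against 1017 and 644 of 24131 over all genes. The edgeR median was -0.05 against -0.01.

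Other genes with the same annotation as gene12209 did not share its absence from the deep reef. Neuroendocrine convertase 2-like gene8234 had a mean of 19.8 CPM in shallow and 68.8 CPM in deep planulae, and 24.1 and 19.3 CPM in the adults. Gene8224 had 8.29 and 6.53 CPM in planulae, and 5.86 and 2.37 CPM in adults. Neither gene was called at either native stage. Furin-like gene17660 resembled gene26190 in its fall after the planula stage and differed from it by depth, with 15.1 ± 8.99 CPM in shallow and 17.1 ± 5.44 CPM in deep planulae. It had 3.03 ± 2.03 CPM in 8-day controls and 0.0539 ± 0.0485 CPM in 60-day controls (log2 -5.55, SE 1.13, adjusted p = 0.00369).

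**Figure D3:**
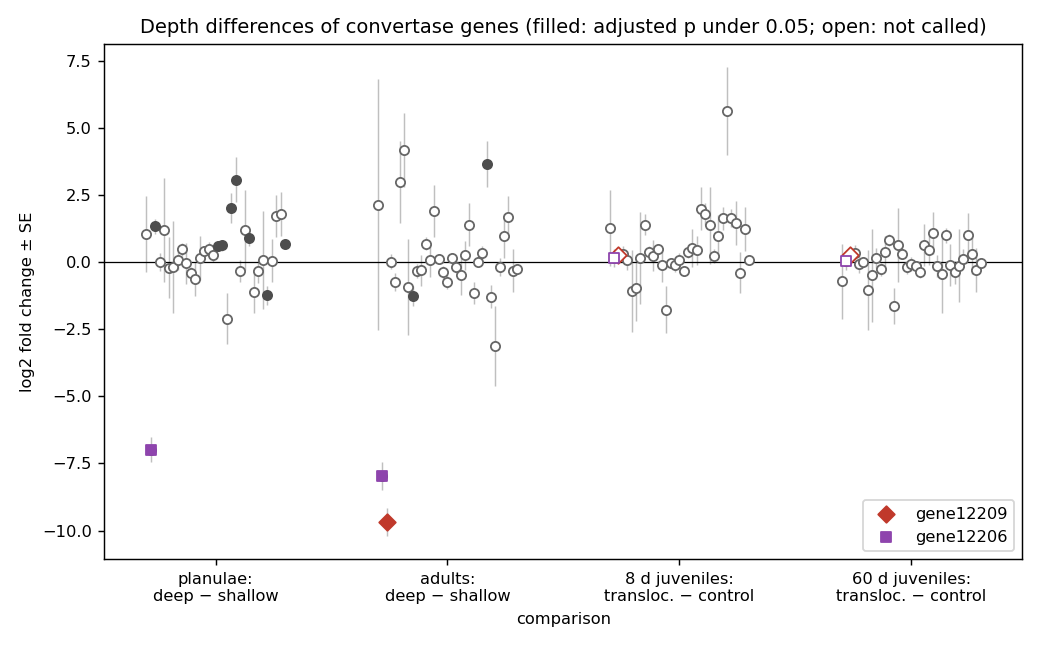
Log2 difference (deep minus shallow, or translocated minus control) of the convertase genes in 4 comparisons, with bars of 1 SE, the horizontal axis naming the comparison and filled symbols marking an adjusted p under 0.05; gene26190 is not drawn. Gene12209 is shown where it was tested, at -9.68 in adults and 0.26 at both juvenile ages, and gene12206 lies at -6.99 in planulae and -7.97 in adults, and no other convertase lies as far below 0.

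The genes whose profile was most like that of gene12209 were found by Pearson correlation of log2 CPM over the 24 libraries, a description in which all points share library size and scaling. They were gene12206 (0.989), gene12420 (Y-box factor homolog, 0.969), gene16105 (receptor-type tyrosine phosphatase alpha-like, 0.96), the uncharacterized gene12208 (0.959) and gene13308 (nephrocystin-4-like, 0.943). Y-box proteins bind nucleic acids, and nephrocystin-4 is a protein of the cilium base in mammals. Gene12420 had 26 ± 12 CPM in shallow and 0.556 ± 0.365 CPM in deep planulae, and 14.7 ± 2.41 and 0.908 ± 0.277 CPM in the adults. Gene12208 had no count in deep planulae and 1 count in deep adults, against 2.08 ± 0.924 and 2.14 ± 0.584 CPM in the shallow groups. With Spearman correlation, or without the deep planulae, 1 of these 5 genes remained among the nearest, gene12206.

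For gene26190 the nearest genes were the uncharacterized gene24287 (0.938) and gene23184 (0.91), octopamine receptor 1-like gene26277 (0.898), gonadal-type histone H2B gene259 (0.894) and COMM domain-containing 7-like gene17184 (0.889). Octopamine is a neurotransmitter of invertebrates. Gene26277 had 297, 112 and 118 CPM in shallow planulae and 2.85, 11.1 and 6.6 CPM in deep planulae, with 7.26 ± 2.01 CPM or less in each later group. Gene24287 was the nearest in shape and much lower in level, at 2.66 ± 0.188 CPM in shallow planulae. Under Spearman correlation, or without the deep planulae, none of the 5 remained among the nearest 5, so this likeness rests on the choice of measure.

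**Figure D4:**
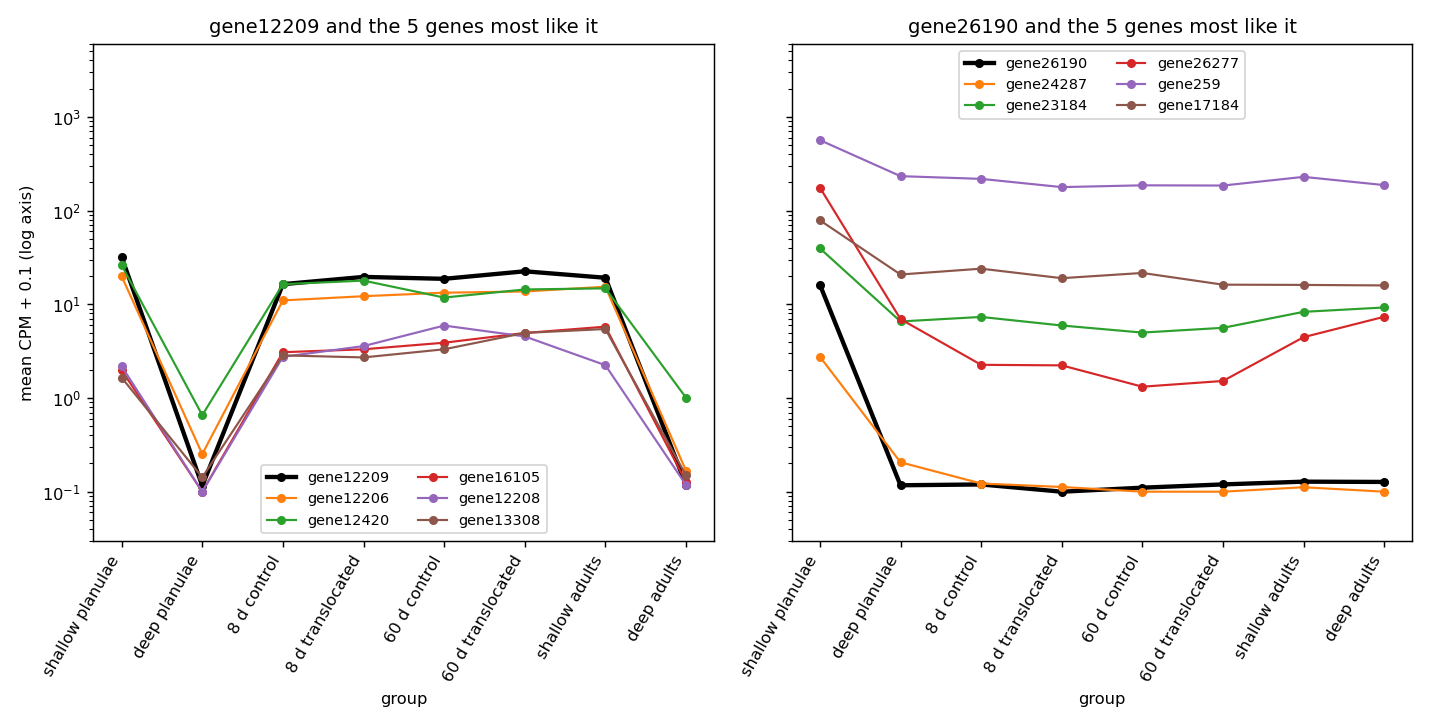
Group means in CPM plus 0.1 (log axis) over the 8 groups for gene12209 (left, black) and gene26190 (right, black) with the 5 genes most correlated with each. On the left all 6 genes dip in deep planulae and deep adults and are higher in all other groups, and on the right all 6 are highest in shallow planulae, though gene259, gene17184 and gene23184 stay well above 1 CPM elsewhere.

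Gene order was taken from a reference assembly, jaStyPist1.2, whose relation to the build of the deposited counts is not known. There gene26190 lies on chromosome 2 among other convertase genes, with 4 genes between it and furin-1-like gene15910 and 2 genes between it and PCSK type 6-like gene8233. Those neighbours did not share its pattern. Gene15910 had 5.38 ± 0.893 CPM in shallow and 5.41 ± 1.48 CPM in deep planulae, and gene8233 had 9.37 ± 3.86 and 31.0 ± 3.83 CPM. Gene12206 lies on chromosome 5, with 4 genes between it and the uncharacterized gene12210. Gene12209 had no match in the gene list of that assembly, so its place is not given. The numbers of gene12206, gene12208 and gene12209 are close, and whether these genes lie together was not tested.

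Genes of the steps around convertase cleavage were counted next. The list of peptide hormone maturation genes held 24, of which 0 rose and 3 fell in deep adults by edgeR. The median log2 difference of the 24 was 0.03, where 3.77% of all genes were called higher and 4.33% lower. At an unadjusted p under 0.05 by edgeR, 4 genes were higher and 5 lower, and DESeq2 called 1 higher and 4 lower. The summed level of the 24 genes was 1760 to 1950 CPM in shallow adults and 2030 to 2670 CPM in deep adults, higher without overlap. At 60 days it was 3150 to 5030 CPM in controls and 2450 to 2910 CPM in translocated juveniles, lower without overlap. The sums overlapped between depths in planulae and in 8-day juveniles. Peptidylglycine alpha-amidating enzymes add the terminal amide that many neuropeptides need, and gene176 of this family went from 38.7 ± 1.9 to 12.7 ± 3.41 CPM (log2 -1.6, SE 0.23, adjusted p = 0.000261). Gene173, a monooxygenase of the same family, went from 34.5 ± 3.05 to 9.41 ± 4.7 CPM (-1.87, SE 0.3, adjusted p = 0.000588). When adults alone were fitted its adjusted p was 0.0664. In deep planulae gene173 also fell by 1.2 (adjusted p = 0.00645), and its 60-day log2 difference in juveniles was -0.26 (adjusted p = 0.712). At 60 days gene401, another member of that family, fell from 248.0 ± 8.38 to 166.0 ± 13.4 CPM (adjusted p = 0.0331), a call lost when any of 5 of the 6 libraries was left out, with adjusted p values from 0.0635 to 0.15. The third adult decrease, of the vesicle-priming gene11992 (calcium-dependent secretion activator, -0.71, adjusted p = 0.0479), was lost without any of the 3 shallow adults or deep adult replicate 3 (adjusted p from 0.0636 to 0.144). In planulae 5 of the 24 rose and 1 fell, where 12.5% and 10.4% of all genes did. None of the 3 neuropeptide precursors was called by edgeR or DESeq2 in planulae, in adults or at either juvenile age (at an unadjusted p under 0.05, 1 was lower in deep planulae and 1 higher at 8 days, with 0 in the others). Their summed level was 662 to 1080 CPM in shallow and 358 to 380 CPM in deep planulae, which did not overlap, and 73.5 to 94.4 CPM in shallow and 21.4 to 100.0 CPM in deep adults, which did.

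Families whose mammalian members are cut by furin, such as Notch receptors, bone morphogenetic proteins and matrix metalloproteases, numbered 85 genes, of which 83 were tested. The 85 genes summed to 1490 to 2160 CPM in shallow and 2830 to 3710 CPM in deep planulae, without overlap. In adults the sum was 2970 to 3230 CPM in the shallow and 3610 to 3990 CPM in the deep group, without overlap. At 8 days controls had 2700 to 2930 CPM and translocated juveniles 3280 to 4730 CPM. At 60 days controls had 3000 to 3140 CPM and translocated juveniles 3260 to 6820 CPM, with no overlap at either age. In deep planulae 28 of the 83 rose and 3 fell (median 0.78 against 0.09 over all genes), where 12.5% of all genes rose and 10.4% fell. In deep adults edgeR called 2 higher and 2 lower (median 0.29 against 0.0), no larger a share than the 3.77% and 4.33% of all genes. DESeq2 called 9 of 83 higher and 3 lower, against 1751 and 1769 of 25626 over all genes. At an unadjusted p under 0.05 by edgeR, 17 were higher and 6 lower, against 5989 of 25735 genes in either direction. Neurogenic locus notch 3-like gene19573 had 5.95 ± 5.67 CPM in shallow adults and no count in deep adults (adjusted p = 0.00204, and 0.111 when adults alone were fitted). Matrix metalloproteinase-25-like gene6763 went from 7.26 ± 1.5 to 34.2 ± 7.12 CPM (log2 2.23, adjusted p = 0.00874). In 60-day juveniles 1 of the 83 rose by edgeR, BMP5-like gene1349 (1.38, adjusted p = 0.0357, where 1.08% of all genes rose, and up to 0.125 when a library was left out). There DESeq2 called 7 of 78 higher and 0 lower, against 1017 and 644 of 24131 over all genes. At an unadjusted p under 0.05 by edgeR, 16 were higher and 2 lower, against 4330 of 25735 genes in either direction.

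Markers of cells that secrete peptides were set beside the fall of gene12209 in deep adults. The 33 neuron and secretory-vesicle genes summed to 977 to 1160 CPM in shallow and 994 to 1470 CPM in deep adults, with none of the genes at 0. In deep adults 1 of the 33 was lower and 0 were higher by edgeR, where 4.33% and 3.77% of all genes were. The lower gene was gene11992, already counted among the peptide hormone maturation genes. At an unadjusted p under 0.05, 4 of the 33 were higher and 2 lower, against 5989 of 25735 genes in either direction. DESeq2 called 3 higher and 1 lower, against 1751 and 1769 of 25626 over all genes. In planulae the sums were 1360 to 1480 CPM in shallow and 1330 to 1610 CPM in deep libraries. These sums overlapped between depths at both native stages. In deep planulae 4 of the 33 genes rose and 2 fell, where 12.5% and 10.4% of all genes did. At 60 days synaptotagmin-like gene3084 and gene3085 rose by 1.45 and 0.89 (adjusted p = 0.026 and 0.0286), with adjusted p values up to 0.143 and 0.148 when a library was left out. The 39 digestive and gland genes, all detected in each group, summed to 664 to 871 CPM in shallow and 351 to 473 CPM in deep adults, and to 444 to 451 and 302 to 324 CPM in the planulae. In adults 1 of the 39 rose and 4 fell, where 3.77% and 4.33% of all genes did, among them pancreatic lipase-related gene3366, which went from 113.0 ± 34.4 to 1.25 ± 1.55 CPM (log2 -6.63, and -8.35 without deep adult replicate 3 or -6.0 without replicate 2). The lipase-like gene13103 (-2.71, adjusted p = 2.64e-06) and gene13105 (-3.03, adjusted p = 0.0265) fell too, and gene13105 had an adjusted p of 0.0516 to 0.0791 without any of 5 adult libraries and of 0.00136 (-5.29) without deep adult replicate 3. In 60-day translocated juveniles gene13103 rose by 1.13 (adjusted p = 0.0208), with an adjusted p of 0.0515, 0.127 and 0.111 without control replicates 1 and 3 and translocated replicate 3. The part of these neuron and gland genes in the difference of gene12209 was not tested.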

How the data were processed

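The authors deposited raw counts per gene for 24 libraries, and every column matched a labelled library. Gene names, lengths, log2 fold changes and adjusted p-values of the authors for adults come from an annotated table they deposited (26602 genes), per the file headers. FastQC, MultiQC, cutadapt, Trimmomatic and DESeq2 had been used, per the submitters' processing notes. Libraries carry molecular identifiers and began from 500 ng of total RNA, per the labels' protocols. How reads were aligned and counted, on which build, with or without strand, and whether those identifiers were collapsed is not given in the sources used here, so near-identical copies and overlapping genes may share reads.

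The counts were tested with edgeR 4.0.16 in R 4.3.3, using filterByExpr (25735 genes kept), TMM scaling and 1 quasi-likelihood fit of all libraries on 8 groups (16 residual degrees of freedom). Tests were 2-sided, and p-values were adjusted by Benjamini and Hochberg's method across every gene in the fit, with 0.05 as threshold. The fit was tested on simulated data. Alternatives were RLE size factors, no filter, a replicate block, the groups compared alone, DESeq2 1.42.0 and leaving out each library. Libraries of a group differed by more than counting noise (lowest chi-square per degree of freedom 17.11).

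The members and the gene lists were chosen with earlier results of these data known. Lists came from product names, and accidental name matches were removed by name before their values were computed. Named were all convertases, up to 3 called genes of each other list, the 5 genes most correlated with each member and the genes near absent at both stages. Furin-like gene17660, the other genes near absent in planulae and the calls in planulae were taken up after values were seen.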

Additional observations from a re-analysis of the deposited data

Results flagged for a closer look

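For gene12209 the depth difference in native adults and the difference after 60 days at 45 m were unlike, by -9.94 on the log2 scale in a test of the difference itself (SE 0.61, edgeR adjusted p = 1.99e-08). All 3 deep adults had at most 1 count and all 3 translocated juveniles had 345 counts or more. For furin-like gene12206 the same difference of effects was -8.01 (SE 0.63, adjusted p = 3.67e-07), and -9.13 without deep adult replicate 3.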

How the results depend on the processing

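In deep against shallow adults gene12209 lay between -9.87 and -9.68 on the log2 scale over the settings that kept all libraries (adjusted p from 5.36e-14 to 0.00655) and between -11.9 and -9.0 when 1 library was left out. The difference between the adult and the 60-day effect lay between -10.2 and -9.94, and between -12.1 and -9.26 with a library left out. Both kept their direction and call in every setting run. Deep adults minus 60-day translocated juveniles gave -12.1 to -9.23 with a library left out. With a library left out, the uncalled differences of gene12209 were 0.14 to 0.33 at 8 days, 0.15 to 0.42 at 60 days, 0.03 to 0.3 for age in controls and 0.13 to 0.24 for age in translocated juveniles. Shallow adults minus 60-day controls ran from -0.11 to 0.2, and changed sign to -0.08 without 60-day control replicate 2 and to -0.11 without shallow adult replicate 2.

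The number of all genes called, against which the convertases are read, moved more. In adults it was 2086, with 462 when the groups compared were fitted alone, 3520 with DESeq2 and 1165 to 2957 with a library left out. For 8-day juveniles it was 1, with 2, 95 and 0 to 8 in that order (1397 genes had an unadjusted p under 0.05). For 60-day juveniles it was 608, with 18, 1661 and 221 to 572. For the difference between the adult and the 60-day effect it was 1118, with 268, 2538 and 654 to 1955. For age it was 2191 in controls (DESeq2 3569, a library left out 1239 to 1877) and 1907 in translocated juveniles (3311, 889 to 1466). Shallow adults minus 60-day controls gave 5318 to 7155 with a library left out. Deep adults minus 60-day translocated juveniles gave 6117, 1891 with those groups alone and 4710 to 6571 with a library left out. In planulae the count was 5895, with 3750 to 5773 when a planula library was left out. The cause of these moves was not tested.

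Correlations of same-numbered deviations from the group means ran from -0.095 to 0.257 in the adult and juvenile comparisons, and were not computed for planulae. Pairing by replicate number was therefore not plain, and it is not excluded. With a replicate block gene12209 had -9.7 in adults (adjusted p = 7.37e-09), 0.27 at 8 days and 0.26 at 60 days, and 1860 genes were called in adults. Of 32 calls of other named genes in adults, 60-day juveniles, planulae and the difference of effects, 13 held in every setting. Fold changes of gene26190 outside planulae were not run, since both groups lay at or under the floor.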
